A study of Mus musculus with 7 samples.

Results

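The Toll-like receptor genes Tlr1, Tlr2, Tlr4, Tlr6 and Tlr7, the co-receptor genes Cd14 and Ly96 and the adaptor gene Myd88 were read on 7 single-colour arrays of mouse fetal liver cells. Members were the probe sets that the platform annotation pairs with one of these 8 symbols and no other, which gave 11 of the 22690 probe sets of each array and 8 of 12393 genes. Tlr4 had 2 such probe sets, Tlr7 had 3 and each other gene had 1. The arrays were labelled as liver endothelial progenitors positive for Sca1 (Sca1+, n = 2), progenitors or endothelial cells negative for Sca1 (Sca1-, n = 3), progenitors with no Sca1 sort named (unsorted, n = 1) and a feeder cell layer from fetal liver (n = 1). Sca1 is a cell surface protein by which blood stem cells and other progenitors are commonly sorted. All samples are total RNA of fetal liver origin, and the labels name no strain, gestational age, genotype or treatment, nor which samples came from separate animals or cultures. The p-values therefore speak only to the scatter of these samples, which may be technical.

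Toll-like receptors are membrane proteins of the innate immune system that recognise conserved microbial molecules. Tlr2 works at the cell surface as a heterodimer with Tlr1 or Tlr6 and recognises bacterial lipopeptides, whereas Tlr4 recognises lipopolysaccharide together with Ly96 (MD-2), which binds the lipid, and Cd14, which delivers it. Tlr7 sits in endosomes and recognises single-stranded RNA. Myd88 carries the signal of these receptors to kinases that activate NF-kB, and in liver the family is best known from Kupffer cells and other macrophages, although other cell types express parts of it.

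Signals were scaled to a 2% trimmed mean of 500 on each array, and log2 was taken with a floor of 64. Array number limits the precision. The 2 arrays titled sample 2 and the one titled sample 3 form what is called here the second set, and the other 4 arrays the first set; this split is read from the titles and is named a set by no label. For Actb, the 3' signal over the 5' signal, which is higher where transcripts are truncated, was 6.83 in Sca1+ replicate 1 and 13.5 in Sca1- replicate 1. The second-set arrays had 1.87 to 2.37, and the unsorted and feeder arrays 1.01 and 1.03. The median signal of the bacterial and phage hybridization controls was 9811 on Sca1- replicate 1, between 2862 and 3994 on the other sorted arrays and 756 and 736 on the unsorted and feeder arrays. Of 15 endothelial markers, 4 and 10 exceeded a signal of 100 in the Sca1+ replicates, 8, 6 and 7 in the Sca1- replicates, 12 in the unsorted cells and 7 in the feeder. Tek, Tie1 and Erg stayed under 100 on all 7 arrays. The highest background control read 170 both for Sca1- replicate 1 and for the unsorted cells, so their counts may include background. In the unsorted cells Pecam1 (117), Flt1 (121), Cldn5 (109) and Lyve1 (109) lay under it. A signal above 100 was also common there, with 9413 of 12393 genes against 7576 to 8222 in sorted cells and 8130 in the feeder. Of 16 macrophage and Kupffer cell markers, between 12 and 14 exceeded 100 on each of the 7 arrays. On each array a larger share of the macrophage list than of the endothelial list exceeded 100. Pecam1, which encodes the endothelial antigen CD31, read 15 and 206 in Sca1+, 23.2, 117 and 25.8 in Sca1-, 117 in unsorted and 124 in feeder cells. No probe set of the annotation is paired with Ly6a, the gene of Sca1, so the sort could not be checked on it.

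Each of the 8 receptor genes had a probe set above 100 on all 7 arrays, and all 8 passed the filter of a signal above 100 on at least 2 sorted arrays. On Sca1- replicate 1, however, the signals used for Ly96 (169) and Tlr4 (170) were not above that array's highest background control (170). The comparison of Sca1+ with Sca1- cells asks which transcripts differ between the fractions. The difference was above 0 for 6 of the 8 genes (55.9% of all genes) and below 0 for Tlr2 and Tlr6, with a median log2 difference of 0.68 against 0.07 over the 8591 genes tested. The Sca1+ replicates both exceeded all 3 Sca1- replicates for Tlr1, Cd14, Tlr4 and Tlr7, which is 4 of 8, against 12.1% of all genes tested, and for no member did both lie below (8.45% of all genes). Since the members were chosen with these data known, the share is a description. None of the 8 passed limma with Benjamini-Hochberg adjustment (adjusted p = 0.9995 for each), as none of the 8591 genes did (0% called). A fit that blocks on the deposit set called 85 genes (0.989%), again with none of the 8 among them. Fewer cells of a type and less RNA per cell cannot be told apart in these bulk samples.

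**Figure D1:**
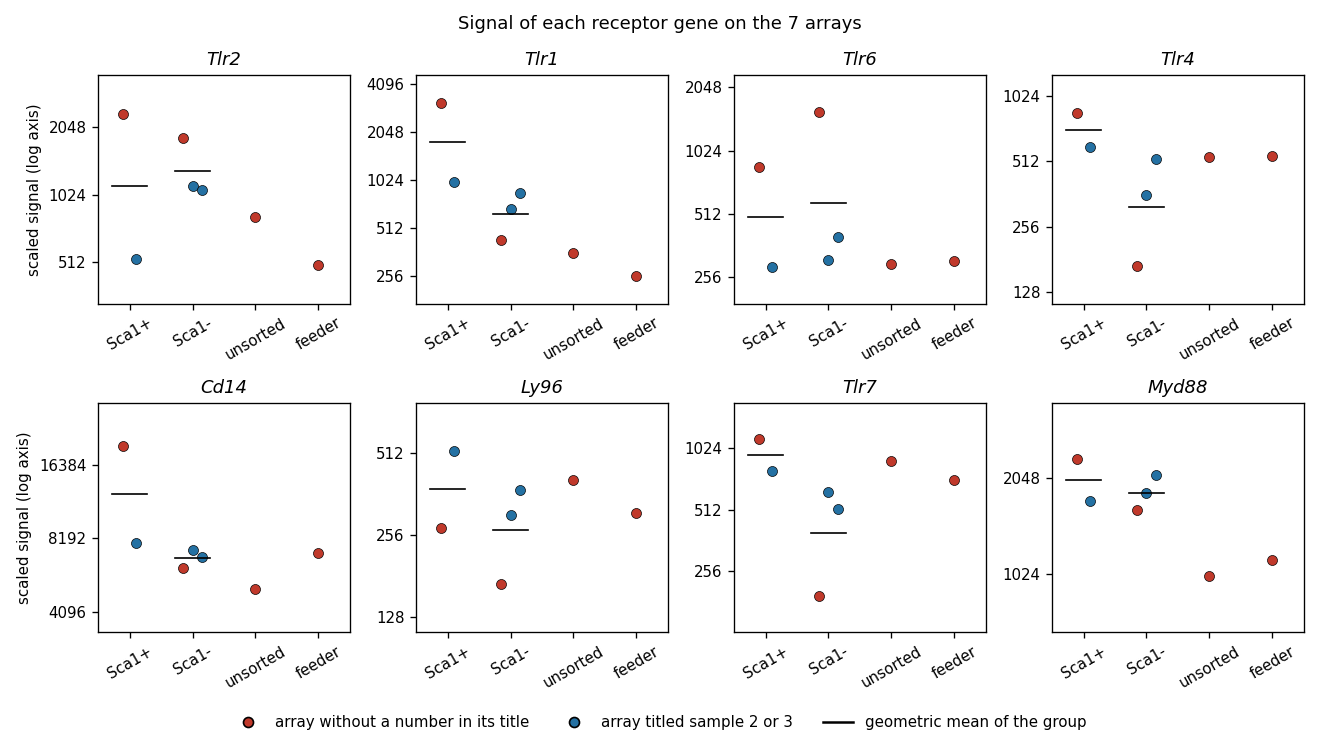
Scaled signal (log axis, own range per panel) of the probe set used for each receptor gene on the 7 arrays, by group, with red points for the first set, blue points for the second and a line for each group's geometric mean. Tlr1, Cd14, Tlr4 and Tlr7 have both Sca1+ points above the 3 Sca1- points, and 6 of the 8 genes are highest on Sca1+ replicate 1.

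The lipopeptide receptors are described first. Tlr1 lies beside Tlr6 on chromosome 5, with 0 protein-coding genes between them in the RefSeq gene table of GRCm38.p6, and both encode partners of Tlr2. Because these neighbours had different orders of signal over the arrays, the 250 bases before their outermost listed start are shown with those of Tlr2, from RefSeq (GRCm38.p6, all on the minus strand), where 4 of the 8 members had a window. Capitals mark GAGGAA, the core letters bound by PU.1 and related factors, GGG and CC parted by any 5 bases, the outer letters of NF-kB sites, and GAAA and GAAA parted by any 2 bases, the letters of interferon-response elements, on either strand. The motifs were chosen with the sequences in view. These occur in 23.3%, 45.8% and 2.98% of the 32851 windows of the same length.
Tlr1 (chr5:64933559-64933808): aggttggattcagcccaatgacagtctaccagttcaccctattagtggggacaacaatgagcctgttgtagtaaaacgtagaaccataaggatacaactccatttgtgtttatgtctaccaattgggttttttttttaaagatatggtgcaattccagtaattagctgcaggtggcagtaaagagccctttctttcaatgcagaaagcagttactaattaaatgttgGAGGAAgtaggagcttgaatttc
Tlr6 (chr5:64960049-64960298): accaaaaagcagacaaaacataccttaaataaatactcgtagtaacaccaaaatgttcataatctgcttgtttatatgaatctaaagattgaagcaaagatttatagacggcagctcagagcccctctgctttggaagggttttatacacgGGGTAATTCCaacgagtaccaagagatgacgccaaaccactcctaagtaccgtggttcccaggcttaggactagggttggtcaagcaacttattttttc
Tlr2 (chr3:83841609-83841858): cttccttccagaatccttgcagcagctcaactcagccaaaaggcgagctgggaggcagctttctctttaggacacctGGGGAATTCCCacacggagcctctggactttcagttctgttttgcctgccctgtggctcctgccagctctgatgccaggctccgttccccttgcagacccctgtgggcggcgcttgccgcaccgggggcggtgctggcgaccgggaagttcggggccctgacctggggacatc
The Tlr1 window held 1 GAGGAA, the Tlr6 window 1 match to the NF-kB letters and the Tlr2 window 2 overlapping matches to them. Tlr1 and Tlr6 each have another listed start. The other Tlr1 window held none of the 3 motifs, and the other Tlr6 window held 2 overlapping matches to the interferon-response letters. These are matches of letters, not measured binding sites.

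Tlr1 had the largest difference between the fractions among the 8 genes over all arrays, but not without Sca1+ replicate 1, where it was 0.67 against 0.91 for Tlr4, nor without Sca1- replicate 2, where it was 1.55 against 1.60 for Tlr7. Its signal was 3108 and 994 in Sca1+ against 430, 668 and 842 in Sca1-, with 357 in unsorted and 256 in feeder cells. Both Sca1+ arrays were higher than all other arrays, although Sca1+ replicate 2 stood close to Sca1- replicate 3. The log2 means were 10.78 ± 1.16 (SD, n = 2) for Sca1+ and 9.28 ± 0.49 (SD, n = 3) for Sca1-. The difference was 1.496 ± 0.589 (SE, limma), with a 95% interval of 0.10 to 2.89. With group alone it had the only unadjusted p under 0.05 of the 8 genes (0.0387), against 1.11% of all genes that had one and were higher in Sca1+, and limma's adjusted p was 0.9995. With the set block, unadjusted p was 0.0352 for Tlr1, 0.0357 for Tlr4 and 0.0280 for Tlr7 in limma. With group alone no member had an unadjusted p under 0.05 and was lower in Sca1+ (2.29% of all genes). The order of group means was Sca1+, Sca1-, unsorted and feeder, and the steps between the first 3 exceeded the pooled SD of the sorted arrays (0.78), while the last did not.

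Tlr2, the shared partner of the 2 heterodimers, did not follow Tlr1. Its signal was 2350 and 529 in Sca1+, 1842, 1117 and 1079 in Sca1-, 809 in unsorted and 498 in feeder cells. The Sca1+ arrays enclosed the Sca1- arrays, with the first-set array above all 3 and the second-set array below all 3. The difference was -0.23 ± 0.67 (SE), with a 95% interval from -1.80 to 1.35, so a change of more than 2-fold in either direction lies inside it. No step between neighbouring group means exceeded the pooled SD of 0.95.

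Tlr6 was highest on the first-set sorted arrays of both fractions. Its signal was 857 and 287 in Sca1+, 1567, 311 and 396 in Sca1-, 295 in unsorted and 305 in feeder cells. The groups overlapped, and 5 of the 7 arrays lay between 287 and 396. The difference was -0.22 ± 0.81 (SE), with a 95% interval from -2.15 to 1.71. Sca1- replicate 1 was thus the highest array for Tlr6 and the lowest sorted array for its neighbour Tlr1. The 6 arrays of the larger table differ in group and in set. Over them Pearson's r, as a description, was 0.15 between Tlr1 and Tlr6, 0.83 between Tlr2 and Tlr6 and 0.97 between Tlr1 and Cd14.

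The lipopolysaccharide receptor genes Tlr4, Cd14 and Ly96 all had a difference above 0. The probe set used for Tlr4, 1418162_at, gave 852 and 596 in Sca1+, 170, 357 and 525 in Sca1-, 532 in unsorted and 539 in feeder cells. The fractions did not overlap, and the unsorted and feeder arrays lay between Sca1+ replicate 2 and Sca1- replicate 3. On Sca1- replicate 1 the signal was at the level of that array's highest background control (170), so its distance from the others is uncertain. The difference was 1.17 ± 0.56 (SE), with a 95% interval from -0.16 to 2.50. The second probe set of Tlr4, 1418163_at, gave 308 and 364 in Sca1+ and 88.1, 332 and 460 in Sca1-, so the fractions overlapped. Its difference was 0.49 ± 0.73 (SE). It read 759 on the unsorted array, the highest of the 7, where 1418162_at read 532.

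Cd14, which binds lipopolysaccharide and hands it to Ly96 and Tlr4, had signals of 19450 and 7880 in Sca1+ against 6210, 7326 and 6907 in Sca1-. The unsorted array gave 5107 and the feeder array 7135. Sca1+ replicate 1 stood far above the rest, and Sca1+ replicate 2 lay just above the highest Sca1- array. The difference was 0.86 ± 0.48 (SE), with a 95% interval from -0.26 to 1.99, and it was 0.21 without Sca1+ replicate 1. Among the Sca1- arrays the log2 signal varied least of the 8 genes (SD 0.12, n = 3). In the order of group means only the step from Sca1+ to the feeder exceeded the pooled SD of 0.54.

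Ly96 was the one gene of the 8 whose highest array was Sca1+ replicate 2. Its signal was 272 and 522 in Sca1+, 169, 303 and 374 in Sca1-, 407 in unsorted and 307 in feeder cells. The groups overlapped, and on Sca1- replicate 1 the signal lay below the highest background control of 170. The difference was 0.49 ± 0.53 (SE), with a 95% interval from -0.76 to 1.75. No step in the order of group means exceeded the pooled SD of 0.62.

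Tlr7, the endosomal receptor for single-stranded RNA, had its highest signal in probe set 1422010_at. That probe set gave 1139 and 791 in Sca1+, 192, 624 and 513 in Sca1-, 890 in unsorted and 719 in feeder cells. The fractions did not overlap, and Sca1- replicate 1 stood lowest of all 7 arrays. The difference was 1.27 ± 0.59 (SE), with a 95% interval from -0.12 to 2.66. In the order of group means only the step from the feeder to Sca1- exceeded the pooled SD of 0.77. Probe sets 1419848_x_at and 1449640_at, which are annotated from an expressed sequence tag, both read highest on Sca1- replicate 1, with 250 and 325, where 1422010_at read lowest. Their differences were 0.46 ± 0.50 (SE) and 0.62 ± 0.69 (SE), and in both the fractions overlapped. The x in the name of the first marks a probe set that the array's maker expects to hybridise with other transcripts too, so its signal cannot be assigned to Tlr7 alone.

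**Figure D2:**
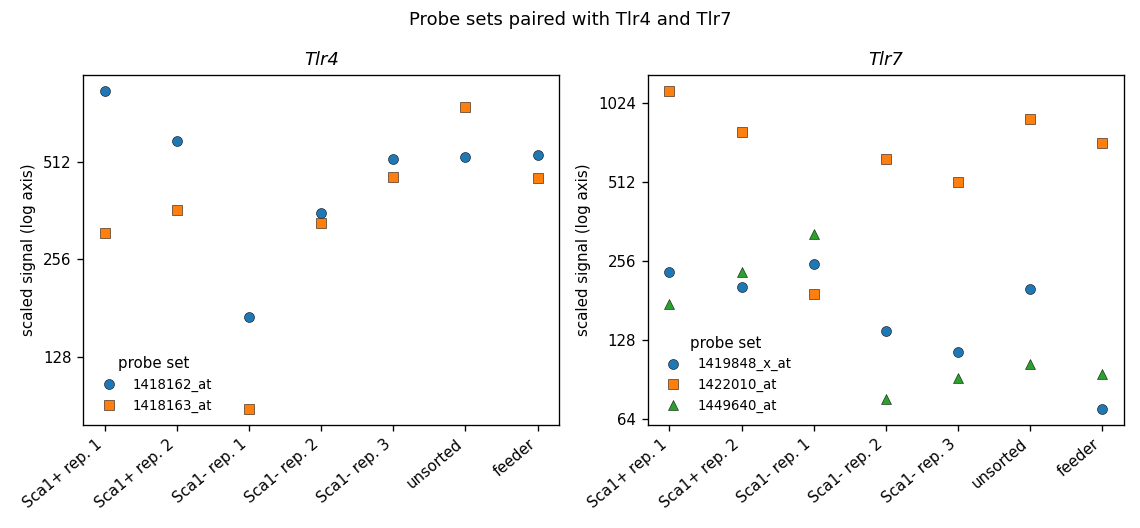
Scaled signal (log axis) of the 2 probe sets of Tlr4 and the 3 of Tlr7 on each of the 7 arrays, 1 point per array. On Sca1- replicate 1, 1422010_at of Tlr7 is at 192 while 1419848_x_at and 1449640_at are at 250 and 325; the 2 Tlr4 probe sets are both lowest there.

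Myd88, the adaptor shared by these receptors, had the smallest pooled SD of the 8 genes over the sorted arrays. Its signal was 2352 and 1739 in Sca1+, 1624, 1841 and 2090 in Sca1-, 1010 in unsorted and 1137 in feeder cells. The fractions overlapped, and the unsorted and feeder arrays lay below all 5 sorted arrays. The difference was 0.13 ± 0.37 (SE), with a 95% interval from -0.75 to 1.02, which excludes a difference much above 2-fold. The step from Sca1- to the feeder was 0.70, larger than the pooled SD of 0.23, but the feeder was deposited in a separate table. The 250 bases before the Myd88 start held 1 match to the interferon-response letters, which are found in 2.98% of the windows, and held neither of the other motifs.
Myd88 (chr9:119340019-119340268, minus strand): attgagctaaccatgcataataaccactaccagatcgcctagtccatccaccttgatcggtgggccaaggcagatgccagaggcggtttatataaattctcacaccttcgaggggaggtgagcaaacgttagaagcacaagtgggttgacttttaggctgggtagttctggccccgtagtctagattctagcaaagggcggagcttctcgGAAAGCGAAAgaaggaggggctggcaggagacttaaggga

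Both sets hold both fractions, so each difference was also taken within the sets. In the first set, which holds a single array per fraction, 7 of the 8 genes lay above 0, and Tlr1 (2.86), Tlr7 (2.57), Tlr4 (2.33) and Cd14 (1.65) were at least 2-fold higher in Sca1+, against 17.1% of all genes. In the second set, where 1 Sca1+ array faces 2 of Sca1-, 5 of 8 lay above 0. None was 2-fold higher by the probe set used (5.3% of all genes). There Tlr7 differed by 0.48, Tlr4 by 0.46, Tlr1 by 0.41 and Cd14 by 0.15, while Tlr2 stood more than 2-fold lower at -1.05 (4.48% of all genes). In the first set no member was 2-fold lower (14.7% of all genes). Tlr2 and Myd88 were higher in Sca1+ in the first set and lower in the second, as 13.1% of all genes were, and no member was the reverse (16.9% of all genes). Ly96 differed by 0.69 and 0.63, but the first of these is taken against Sca1- replicate 1, where its signal of 169 was not above the highest background control. Without Sca1- replicate 1 the differences of Tlr7 and Tlr4 were 0.75 and 0.72.

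**Figure D3:**
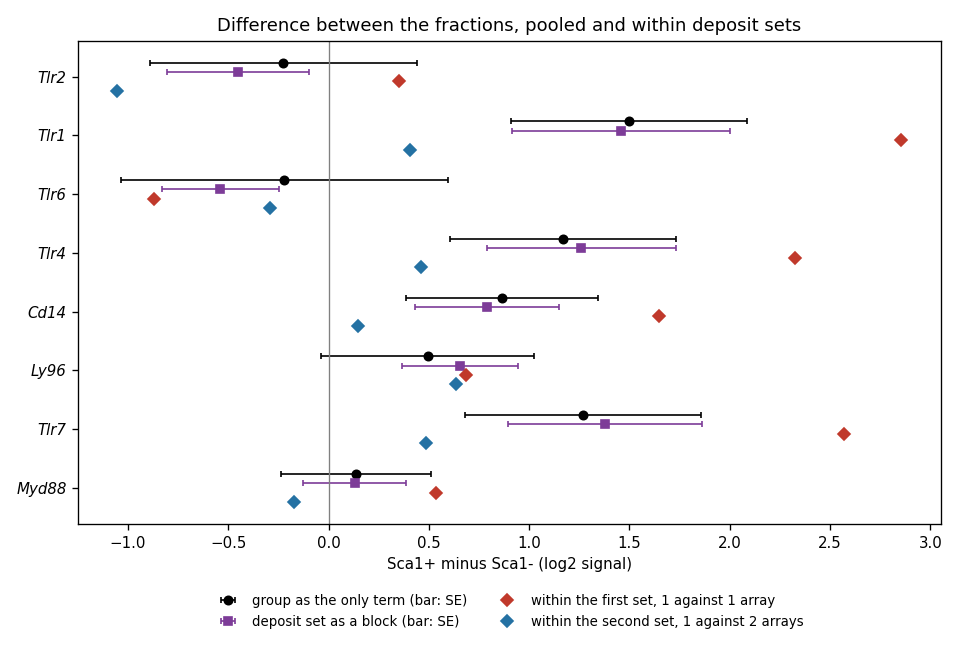
Sca1+ minus Sca1- (log2 signal) of each receptor gene from the fit on group alone and from the fit blocking on deposit set (bars: SE), and within each set as single values. For 7 of the 8 genes the first-set value lies farther from 0 than the second-set value, and for Tlr2 it lies nearer.

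Sca1+ replicate 1 was the highest of the 7 arrays for 6 of the 8 genes (16% of all genes tested), and Sca1- replicate 1 the lowest sorted array for 6 of 8 (36.7%). With the deposit set as a block the differences were 1.46 ± 0.54 (SE, limma adjusted p = 0.302) for Tlr1, 1.38 ± 0.48 (0.283) for Tlr7, 1.26 ± 0.47 (0.302) for Tlr4, 0.79 ± 0.36 (0.352) for Cd14 and 0.66 ± 0.29 (0.338) for Ly96. Those of Tlr6, Tlr2 and Myd88 were -0.54 ± 0.29 (SE), -0.45 ± 0.35 (SE) and 0.13 ± 0.26 (SE), with adjusted p of 0.409, 0.549 and 0.824. The residual degrees of freedom of that fit were 2.

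Markers of myeloid and mesenchymal cells differed between the same arrays. The summed signal of 16 macrophage and Kupffer cell markers was 134000 and 100606 in Sca1+, 133083, 95618 and 85787 in Sca1-, 72696 in unsorted and 67497 in feeder cells. Of these 16 markers, Adgre1, Cd68 and Fcgr1 were higher in both Sca1+ arrays than in every Sca1- array, Itgam was lower in both, and the other 12 overlapped. Adgre1, which encodes the macrophage antigen F4/80, had 16333 and 5550 against 1812, 3565 and 3513, whereas Lyz2, which encodes lysozyme, was highest on Sca1- replicate 1 at 79825. Marco and Cd163 were under the floor of 64 on all 7 arrays. The summed signal of 15 neutrophil and granulocyte precursor markers was 147900 and 11015 in Sca1+ against 633946, 238025 and 212310 in Sca1-, with 69423 in unsorted and 9040 in feeder cells, and 12 of the 15 were lower in both Sca1+ arrays than in every Sca1- array. Tlr2 and Tlr6 were lowest, among the sorted arrays, on Sca1+ replicate 2, where that sum was the lowest of the sorted arrays. Tlr6 was highest on Sca1- replicate 1, where the sum was highest. Tlr2, however, was highest on Sca1+ replicate 1, where the sum lay below that of every Sca1- array. Tlr6 also differed little between Sca1+ replicate 2 (287) and Sca1- replicate 2 (311), where the sums were 11015 and 238025. All 13 fibroblast and mesenchymal markers exceeded 100 on the second-set arrays and the feeder, 12 did on the unsorted array and 6 on each first-set sorted array. Their summed signal was 4536 and 96513 in Sca1+ against 13712, 41552 and 37388 in Sca1-, with 65580 in unsorted and 84402 in feeder cells. Within the second set it was thus more than 2-fold higher in Sca1+, and within the first set lower. The part of these cells, of RNA truncation and of the set in the differences was not tested.

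In the rest of the pathway the fit on group alone called no gene. Of 11 other Toll-like receptors and receptor partners tested, 0 passed limma in either direction, the median difference was 0.38, and the Sca1+ replicates both exceeded all Sca1- replicates for 2 (18.2%, against 12.1% of all genes). These were Tlr3, the receptor for double-stranded RNA, with 326 and 362 against 79.4, 220 and 187 (1.21 ± 0.55, SE), and Ly86 (MD-1), the partner of Cd180, with 3266 and 3803 against 1459, 2438 and 2393 (0.79 ± 0.41, SE). Cd36, a scavenger receptor that assists Tlr2, differed by 1.04 ± 0.84 (SE). Lbp, which carries lipopolysaccharide to Cd14, stood on the other side at -1.54 ± 0.77 (SE), with 462 and 217 against 2546, 598 and 507. Its partner in delivery, Cd14, had its lowest sorted signal on the array where Lbp had its highest, Sca1- replicate 1. Cd14 read 6210 there, not far below 7326 and 6907 on the other Sca1- arrays. Of all genes tested, 36.7% were lowest and 28.6% highest on that array among the sorted arrays. A relation between Lbp and Cd14 was not tested.

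The downstream lists had medians close to that of all genes. Of 11 adaptors and kinases 0 passed, with a median of 0.11; the kinase gene Map3k8 (0.91 ± 0.45, SE) lay above in both Sca1+ arrays, Tbk1 differed by 0.49 ± 0.47 (SE), Ikbke by 0.45 ± 0.43 (SE) and the adaptor gene Tirap by -0.81 ± 0.85 (SE). Of 11 transcription factor genes 0 passed, with a median of -0.01, and Spi1, which encodes PU.1, differed by -0.95 ± 0.63 (SE), Irf8 by 0.71 ± 0.51 (SE), Irf5 by 0.53 ± 0.59 (SE) and Fos by 0.35 ± 0.39 (SE). Among 10 negative regulators 0 passed, with a median of 0.02, and Sigirr differed by -0.90 ± 0.56 (SE), Socs1 by -0.60 ± 0.50 (SE), Nfkbiz by 0.52 ± 0.46 (SE) and Socs3 by 0.38 ± 0.43 (SE).

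Target genes of the pathway also did not pass. Of 14 tested, 0 passed, with a median of -0.00063, and the chemokine gene Ccl3 had 751 and 1210 in Sca1+ against 1382, 2023 and 1802 in Sca1- (-0.85 ± 0.41, SE). The adhesion gene Icam1 differed by 0.80 ± 0.42 (SE), the cytokine gene Il1b by -0.80 ± 0.58 (SE) and Acod1, which encodes the itaconate-making enzyme, by -1.33 ± 0.97 (SE).

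Of 7 other pattern recognition receptor genes 0 passed, with a median of -0.58. On group alone the bacterial wall binding protein gene Pglyrp1 differed by -5.43 ± 0.69 (SE) and the beta-glucan receptor gene Clec7a by -1.26 ± 0.75 (SE). Both passed, lower in Sca1+, in the fit with the set block, at -5.57 ± 0.60 (SE, limma adjusted p = 0.0154) and -1.55 ± 0.22 (SE, limma adjusted p = 0.0423). That fit had 2 residual degrees of freedom and called 0.989% of all genes. With a higher floor or with no filter it called 0, so both calls depend on the processing. Pglyrp1 is also one of the 15 neutrophil and granulocyte precursor markers. Clec4e differed by -1.45 ± 0.97 (SE) and the scavenger receptor gene Msr1 by 1.06 ± 0.52 (SE), with both Sca1+ arrays of Msr1 above every Sca1- array.

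**Figure D4:**
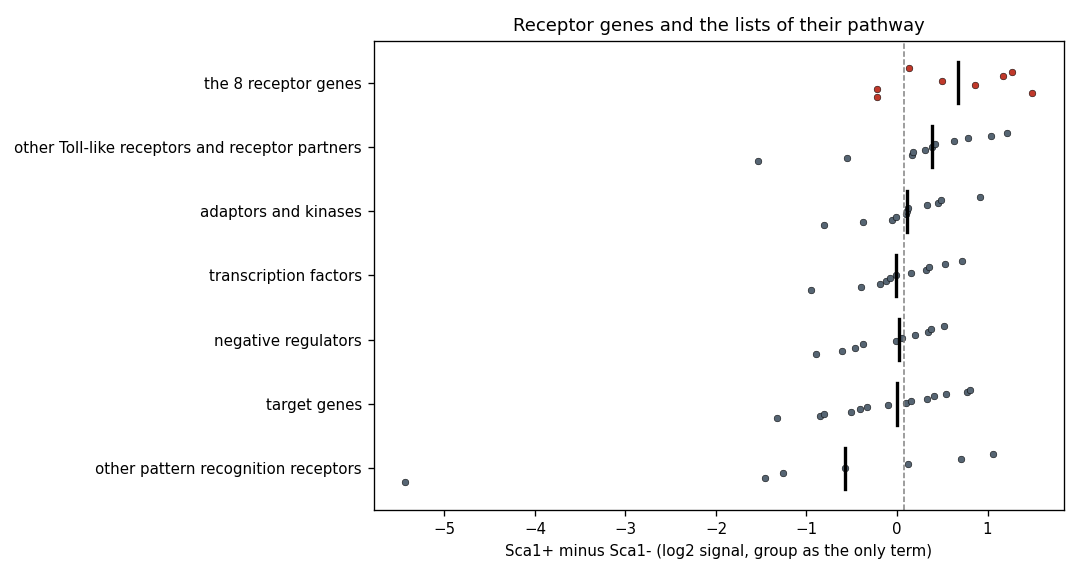
Sca1+ minus Sca1- (log2 signal, group as the only term) of the 8 receptor genes and of the tested genes of each pathway list, 1 point per gene, with a bar at each median and a dashed line at the median of all 8591 genes (0.07). The medians run from -0.58 for other pattern recognition receptors to 0.68 for the receptor genes, and Pglyrp1 is the point at -5.43.

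The unsorted cells were set beside the sorted fractions with no test, since there was 1 unsorted array. The log2 difference from the mean of the fractions was lowest for Tlr1, at -1.55, the 1 gene of the 8 past 2-fold below (7.21% of all genes), and none was past 2-fold above (22.7% of all genes) by the probe set used. It was -0.93 for Myd88, -0.86 for Tlr6, -0.84 for Cd14 and -0.58 for Tlr2, and 0.16 for Tlr4, 0.36 for Ly96 and 0.54 for Tlr7. The other probe set of Tlr4, 1418163_at, lay 1.43 above the mean of the fractions, so the 2 probe sets of this gene differ on the unsorted array. Tlr1, Cd14 and Myd88 lay below every sorted array, which 14.7% of all genes did, and none lay above every sorted array (37.4%). The median of all genes was 0.34 and moved to -0.03 with quantile normalization and -0.45 with scaling to one median, where 10.5% and 5.4% of genes were past 2-fold above and 12.5% and 25.3% past 2-fold below. Against that shift, Tlr1 stayed 1.89, 1.92 and 1.82 below the median of all genes, whereas the signs of Tlr4, Ly96 and Tlr7 depend on the scaling. Relative to the same median, the 5 genes from Tlr1 to Tlr2 lay below it under all 3 scalings.

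The feeder layer was compared with the unsorted cells, 1 array each, in tables deposited separately under 2 platforms that share their probe set names, so no test was made. By the probe set used, none of the 8 genes was past 2-fold in either direction, against 4.08% of all genes above and 15.9% below. The differences ran from -0.70 for Tlr2 to 0.48 for Cd14, with Tlr1 at -0.48, Ly96 at -0.41, Tlr7 at -0.31, Tlr4 at 0.02, Tlr6 at 0.05 and Myd88 at 0.17. Of the other probe sets, 1419848_x_at of Tlr7 lay at -1.52, 1449640_at of Tlr7 at -0.13 and 1418163_at of Tlr4 at -0.74. The median of all genes was -0.13, and 0.29 after scaling to one median, where Tlr7 lay at 0.05 and 9.65% of genes were 2-fold above and 6.58% below. Target genes of the pathway above a signal of 100 on either array numbered 14. Of these, 7 had at least 2-fold more signal in the feeder and, with the floor of 64, 0 had 2-fold less. Il12b read 108 in unsorted and 18.2 in feeder cells, the latter under the floor. The 14 include Il1a and Il6, which were not tested between the fractions, and leave out Cxcl10 and Acod1, which were. Among the 7, named after their values were seen, were Cxcl2, with 4979 against 1100, and Ccl2, with 3222 against 716. Both encode chemokines, Cxcl2 for neutrophils and Ccl2 for monocytes.

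**Figure D5:**
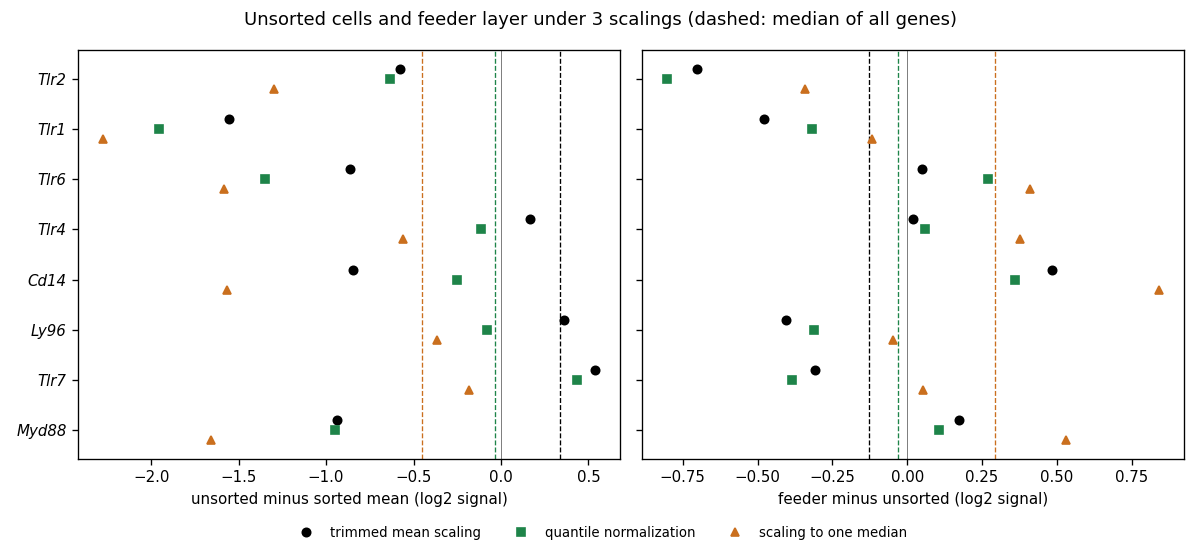
Log2 difference of each receptor gene, unsorted minus the mean of the sorted fractions (left) and feeder minus unsorted (right), under 3 scalings, with dashed lines at the median of all genes under each. Tlr1 is lowest on the left under all 3, at -1.55, -1.96 and -2.28, and all points on the right lie within 2-fold.

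The genes whose log2 signal was most like each member over the 6 arrays of the larger table are given with Pearson's r as a description, since the arrays share sets and a search over 8591 genes returns high values. For Tlr1 they were Txndc9 (r = 0.997) and Cops8 (r = 0.985), for Tlr2 Tmem268 (r = 0.988) and Trappc2 (r = 0.983), and for Tlr6 Eif5 (r = 0.998) and Rab5if (r = 0.998). For Tlr4 they were Ccdc71l (r = 0.998) and Spast (r = 0.995), for Cd14 2610507B11Rik (r = 0.994) and Ly6i (r = 0.991), and for Ly96 Hspa2 (r = 0.995) and Lrp6 (r = 0.995). For Tlr7 they were Ext2 (r = 0.997) and Smagp (r = 0.997), and for Myd88 Ciao2a (r = 0.998) and Cox5a (r = 0.993). Ly6i belongs to the gene family of Ly6a, which encodes Sca1, and had 486 and 141 in Sca1+ against 95.1, 127 and 141 in Sca1-.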

How the data were processed

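The authors deposited one linear signal intensity for each probe set on each array, scaled to a trimmed mean near 250 (from the values). GCOS made them for 3 arrays, per the submitters' processing notes; for the rest, the software was not given in the sources used here. The feeder array lies in a table of its own under another platform, and the tables were joined by probe set name.

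Arrays were rescaled so that the 2% trimmed mean was 500, floored at 64 and put on the log2 scale. Controls (64 probe sets) and probe sets with several genes (691) or none (1555) were left out. For each gene the probe set of highest mean log2 signal over 6 arrays was used. The 8591 genes that exceeded a signal of 100 on 2 or more of 5 sorted arrays were tested with limma 3.58.1 in R 4.3.3. The fit used lmFit, eBayes with intensity trend, group as the only term and Benjamini-Hochberg at 0.05. On data simulated without a shift between sets, it called 7 of 8391 unchanged genes. It recovered 0 of 50 genes changed 2-fold and 19 of 50 changed 4-fold. A gene that did not pass may therefore still differ between the fractions. The set was inferred from sample numbers in the titles. No 2 arrays held identical values.

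The genes always named are the 8 members; each pathway list adds up to 4 genes of smallest p, and each member the 2 most similar genes. Members, lists and rules were chosen with earlier results of these data known. The alternatives were other normalizations, floors, filters, probe set rules, blocks and leaving out each sorted array. Figures were drawn with matplotlib 3.10.9.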

Additional observations from a re-analysis of the deposited data

Results flagged for a closer look

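In 2 genes every array pair of the first set differed in the opposite direction from every pair of the second. Tlr2 was higher in Sca1+ within the first set (0.35) and lower within the second (-1.05), a second minus first difference of -1.40 ± 0.13 (SE). Myd88 was higher within the first set (0.53) and lower within the second (-0.17), a second minus first difference of -0.71 ± 0.19 (SE). The difference between sets, fitted with limma over all genes as a test chosen after seeing the data, had adjusted p-values of 0.101 and 0.151 and 1 residual degree of freedom, and 0 of 8591 genes passed. Of all genes, 13.1% were higher in Sca1+ in the first set and lower in the second, as these 2 were. Groups of 1 to 3 arrays are too small for a check of single outlying arrays.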

How the results depend on the processing

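In all 21 alternative fits 0 of the 8 receptor genes passed. Tlr1, Cd14, Ly96, Tlr4 and Tlr7 kept a difference above 0 in all of them, with lowest values of 0.67, 0.21, 0.02, 0.72 and 0.75. The number of genes past the threshold, 0 with group only, was 85 with the deposit set as a block, 80 with the replicate block, 40 with the set block and no intensity trend (added after seeing the data), 1 with no filter and 0 on leaving out any array. Deviations from the group means correlated across genes at 0.57 and 0.48 between same-numbered arrays of the fractions, but the numbers also follow the sets. Sca1+ replicate 2 and Sca1- replicate 3, which share a set but not a number, correlated at 0.52. With 2 Sca1+ arrays the deviations of 1 mirror those of the other, so these correlations are not independent of each other. The replicate block changed no call among the receptor genes; the set block with a higher floor or no filter called 0. Leaving out 1 array gave -1.30 to 0.85 for Tlr2, -1.01 to 0.57 for Tlr6 and -0.083 to 0.35 for Myd88, so their direction rests on single arrays. Within the first set Tlr2 was 0.35 and within the second Myd88 was -0.17. Of the receptor genes, 4 to 6 separated with 1 array left out, where 15.8% to 34.3% of all genes did, and 3 did with scaling to one median or with probe sets averaged per gene. Those 2-fold lower on the unsorted array were 1, but 2 with quantile normalization and 5 with scaling to one median, and 1 to 5 with 1 array left out; the cause was not tested. Signals near the background controls, as for Ly96 and Tlr4 on Sca1- replicate 1, limit the size of those differences.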

Other observations

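Of the Toll-like receptors outside the 8 genes, the endosomal receptors Tlr8 and Tlr9 stood highest on the unsorted array, as 22.1% of all genes tested did. They are named after their values were seen. Tlr8 had 93.0 and 233 in Sca1+, 19.8, 162 and 83.4 in Sca1-, 714 in unsorted and 451 in feeder cells. Tlr9, the receptor for unmethylated CpG DNA, had 117 and 162 in Sca1+, 161, 132 and 32.6 in Sca1-, 556 in unsorted and 103 in feeder cells. Of 8 dendritic cell markers, 6 exceeded 100 on the unsorted array, 3 to 5 on the sorted arrays and 2 on the feeder array. Of all 12393 genes, 9413 did so on the unsorted array, 7576 to 8222 on the sorted arrays and 8130 on the feeder array. The highest background control of the unsorted array read 170, above that cutoff. The summed signal of the 8 markers was 1897 on the unsorted array, 1994 on the feeder array and 1654 to 5371 on the sorted arrays. The part of dendritic cells in these values was not tested.

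Jun, which encodes a subunit of the AP-1 transcription factor downstream of these receptors, was lowest on the first-set sorted arrays of both fractions. It read 386 and 4565 in Sca1+, 163, 3156 and 3308 in Sca1-, 2066 in unsorted and 3823 in feeder cells. The summed fibroblast and mesenchymal markers were lowest on the same 2 arrays (4536 and 13712, against 37388 to 96513 on the others), where the Actb ratios of 3' to 5' signal were highest (6.83 and 13.5). The part of either in the values of Jun was not tested.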
